A study of Bos taurus with 36 samples.

Results

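The translation initiation and elongation factors were taken as every protein-coding gene of the count table whose bovine RefSeq symbol starts with EIF1 to EIF6 or with EEF1 or EEF2. The rule found 64 genes among the 35092 in the table, and each of them had counts in at least 1 library. The gene table holds 65 such symbols, and the one left over, EIF1AY, was not analysed here. The members include the core factors, their regulatory kinases, their binding inhibitors and the methyltransferases named after them, so the group is defined by name and not by a shared activity.

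Translation begins when the EIF2 complex, loaded with GTP and the initiator tRNA, joins the small ribosomal subunit with EIF1, EIF1A, EIF3 and EIF5, while EIF4E binds the mRNA cap and EIF4G and the helicase EIF4A bring the mRNA in. EIF5B then helps the large subunit to join, EEF1A carries aminoacyl tRNAs to the ribosome, the EEF1B subunits recharge EEF1A with GTP, and EEF2 moves the ribosome along the mRNA. Cells slow the process mainly through kinases of the EIF2 alpha subunit, through EIF4E-binding proteins that the mTORC1 kinase releases, and through EEF2K, the kinase that inactivates EEF2. EEF1A2 is known to replace EEF1A1 in mature heart, skeletal muscle and neurons.

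The series holds RNA-seq of heart, liver and gonad of 10 male bovine fetuses recovered on Day 42 of gestation, with the blood of the heifers that carried them. All fetuses came from Day 7 embryos moved into recipient heifers. In 5 heifers, labelled ET_D7, the transfer was made on Day 7 of the cycle and so matched the age of the embryo. In the 5 others, labelled ET_D9, it was made on Day 9. The fetuses are numbered here 1 to 10 by weight. Those of ET_D7 weighed from 1.253 to 1.37 g and those of ET_D9 from 1.396 to 1.69 g, so that weight and transfer group cannot be told apart. Heart was measured in 9 fetuses (5 of ET_D7, 4 of ET_D9), gonad in 9 (4 and 5), liver in 8 (5 and 3) and maternal blood in 10 (5 and 5). Libraries of the fetal organs came from a stranded kit for mRNA, and those of blood from another stranded kit. In pieces of whole organ, fewer cells of a type and less RNA per cell cannot be told apart.

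Library totals ran from 18231089 to 40812354 counts. The factors took 1.39% to 2.50% of the counts of nuclear genes in heart, 1.52% to 2.09% in gonad, 1.36% to 1.95% in liver and 1.09% to 1.37% in blood. The marker genes of heart and liver and the leukocyte markers of blood were high where the labels place them. Cardiomyocyte markers also reached 2059 CPM in the liver of fetus 3, against at least 35422 in heart. The gonad libraries, labelled as fetal testicle, were low in 5 Sertoli cell markers (a sum of 4.17 to 10.4 CPM, counts scaled to a common library size, against 8.37 to 15.1 in heart) and in 5 Leydig cell markers (6.48 to 15.1 against 9.54 to 24.4), and held 381 to 486 CPM of 8 mesonephros and kidney markers against 8.14 to 39.5 in heart and liver. The blood libraries of the dams of fetuses 2 and 5 held 6998 and 2509 CPM of skeletal muscle markers against 21.7 to 79.8 in the 8 other blood libraries. Erythroid markers varied widely between blood libraries, from 204 to 8673 CPM with a median of 909. The part these markers play in the results was not tested.

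In the typical gene, a pair of gonad libraries and a pair of liver libraries were more alike than repeated sequencing of the same RNA would make them. Between the gonads of fetuses 6 and 8, 57 of 63 factors had a ratio of counts within 1% of the median ratio of all genes, 1.27, and 58 lay within 2 standard errors of it. The 5 exceptions were EIF1AX (2848 and 12588 counts), EIF4G3 (4763 and 14716), EIF1B (1780 and 3833), EIF4E (4618 and 7633) and EIF2A (5408 and 9135), all with more counts in fetus 8 than the common ratio gives. Between the livers of fetuses 1 and 2, 55 of 60 factors lay within 2 standard errors of the median ratio, 1.055. The typical distance from the median ratio was 0.0148 standard errors in the gonad pair and 0.367 in the liver pair, where sampling noise alone gives 0.674, and it was at least 1.35 in every other pair of the same tissue. In both pairs the typical gene differed by less than the sampling noise, so each pair was averaged and counted as 1 sample. This left 9 heart, 8 gonad, 7 liver and 10 blood libraries. For the 5 exceptions in gonad the average mixes unlike counts.

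**Figure D1:**
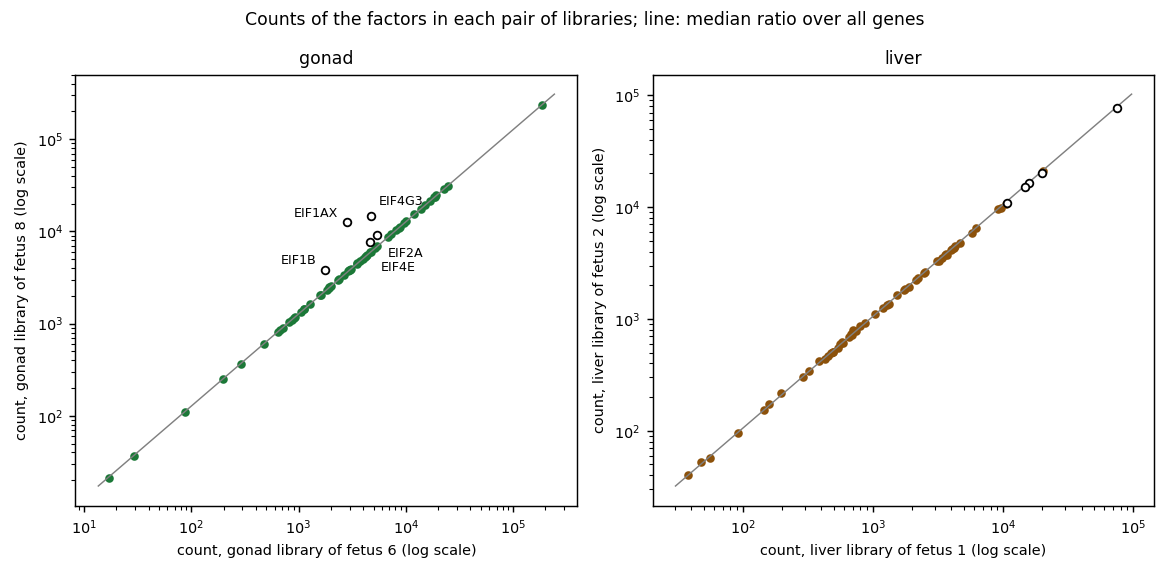
Counts of each factor in the gonad libraries of fetuses 8 and 6 (left) and in the liver libraries of fetuses 2 and 1 (right), both axes logarithmic, with the median ratio over all genes as a line. Open points lie 2 or more standard errors from the line; in gonad these are EIF1AX, EIF4G3, EIF1B, EIF4E and EIF2A.

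The organs differed in many factors, and the direction varied from factor to factor, also within a role. EIF5B and the EIF2 alpha kinase EIF2AK1 were highest in liver, EIF4EBP1, EEF1A2 and EEF2 in heart, and most EIF3 subunits that were called low were low in gonad. A factor was called higher or lower in an organ when it differed in the same direction from each of the other organs at an adjusted p under 0.05 (edgeR quasi-likelihood test, Benjamini-Hochberg over all genes tested), and all 64 factors passed the filter on low counts in this comparison. Called higher were 8 factors in heart (12.5%, against 13.6% of all 19489 genes tested), 9 in gonad (14.1% against 18.2%, and 5 to 11 with each fetus left out in turn, 5 of them without fetus 4, 5 or 9) and 17 in liver (26.6% against 26.1%). Called lower were 3 in heart (4.69% against 10.6%), 19 in gonad (29.7% against 16.9%) and 17 in liver (26.6% against 23.5%). The share lower in gonad was above the background and the share lower in heart below it, and the other shares were near it. Between 2 organs, 23 factors were higher and 13 lower in heart than in gonad (28.3% and 28.6% of all genes), 23 higher and 22 lower in heart than in liver (32.9% and 34.3%), and 23 higher and 27 lower in gonad than in liver (35.9% and 36.7%). The median log2 difference of the factors was 0.17 for heart over gonad, against -0.071 for all genes, -0.035 for heart over liver, against -0.023, and -0.13 for gonad over liver, against -0.025.

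These calls use scaling by trimmed means. With library totals as the only scaling, the median of all genes moved to -1.11 for heart over gonad and to 1.02 for gonad over liver, and the calls became 31 higher and 2 lower in gonad, 3 higher and 16 lower in heart, and 6 higher and 21 lower in liver. Of the EIF3 subunits called lower in gonad, only EIF3H kept that call with library totals. The directions below are therefore relative to the bulk of the genes. Mitochondrial genes took 17.1% to 57.3% of heart counts, 16.3% to 36.8% of liver counts and 3.31% to 7.23% of gonad counts, and with these genes left out the calls were 10 higher and 19 lower in gonad and 8 higher and 4 lower in heart.

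**Figure D2:**
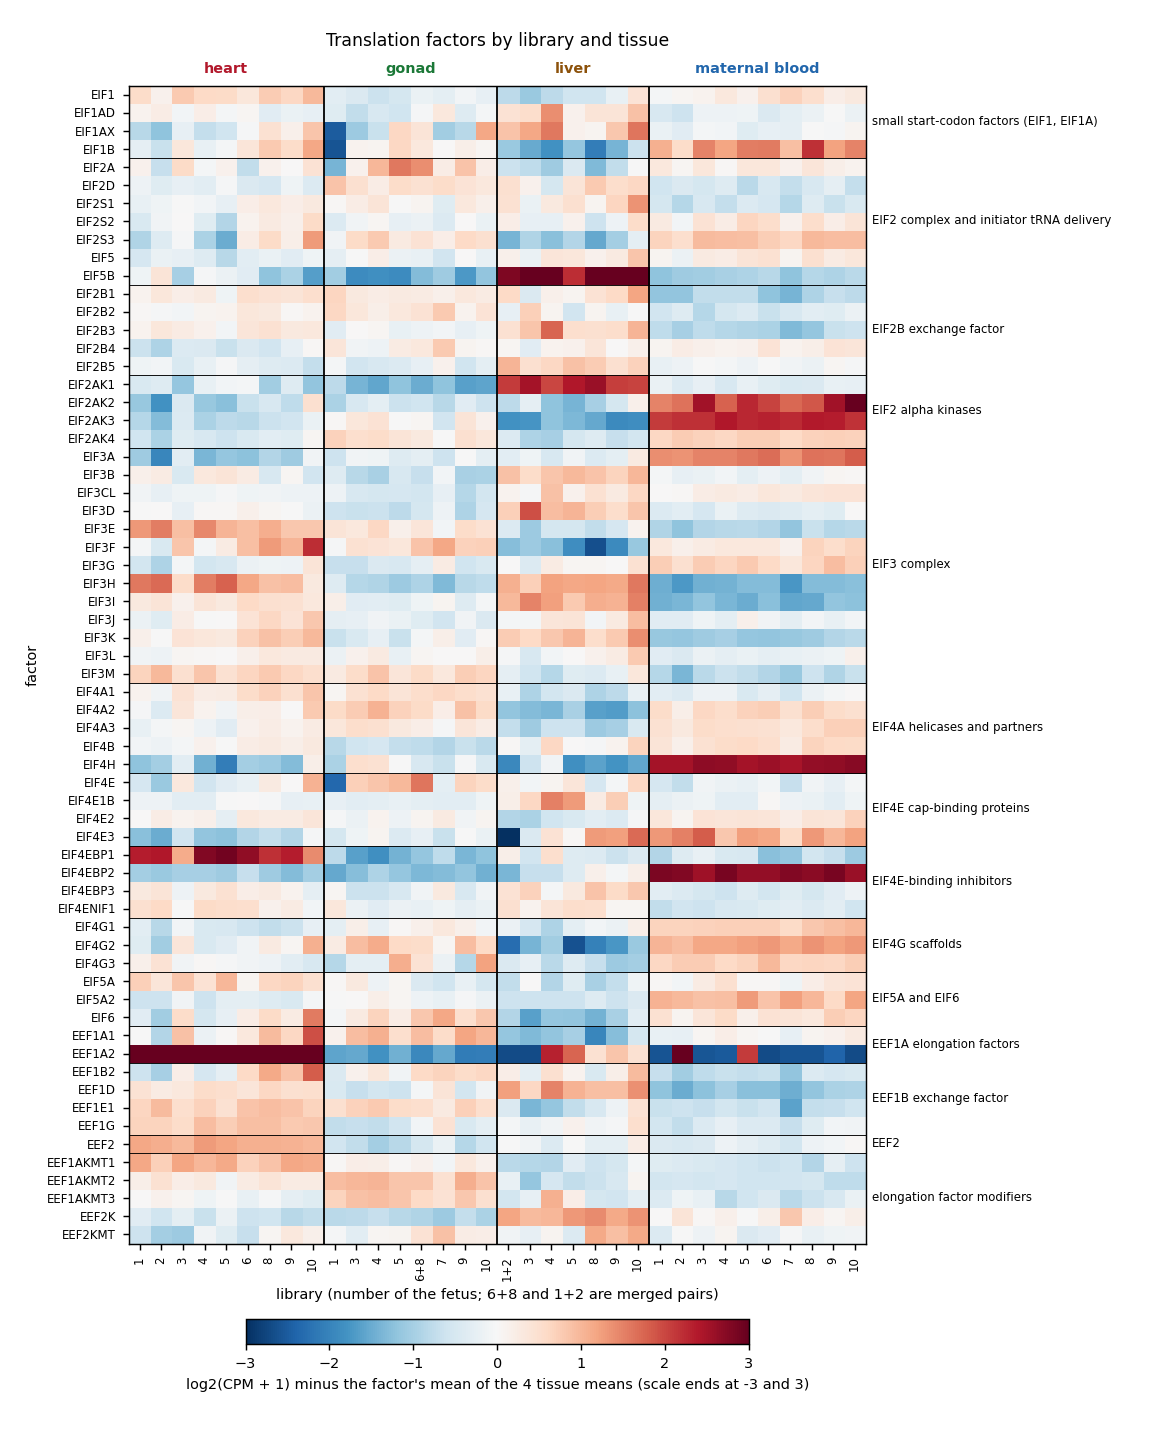
Each row is a factor, grouped by role, and each column a library, grouped by tissue and ordered by fetal weight. Colour gives log2(CPM + 1) minus the factor's mean over the 4 tissue means. EEF1A2 and EIF4EBP1 stand out in heart, EIF5B and EIF2AK1 in liver, and EIF4EBP2, EIF4H, EIF2AK2 and EIF2AK3 in maternal blood.

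Of the factors that carry tRNA and move the ribosome, EEF1A1 was low in liver and EEF1A2 was high in heart. EEF1A1 measured from 594 CPM through a median of 1008 to 1598 in liver, 1243 through 2863 to 8709.6 in heart and 2484 through 4338 to 5194 in gonad. The liver libraries overlapped with heart only at the low end of the heart range and not at all with gonad. The log2 difference was 1.75 for heart over liver (SE 0.30, adjusted p = 1.63e-05) and 1.93 for gonad over liver (SE 0.31, adjusted p = 5.10e-06), while heart over gonad was -0.18 (SE 0.28, adjusted p = 0.599). EEF1A1 has many processed copies in mammalian genomes, and how reads shared with such copies were counted is not given in the sources used here.

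EEF1A2 measured 51.3 to 75.5 CPM in heart, with a mean of 60.4 ± 8.08 (SD, n = 9), against 0.935 ± 0.340 in gonad (n = 8). Heart exceeded gonad by 6.02 on the log2 scale (SE 0.72, adjusted p = 9.88e-08) and liver by 2.43 (SE 0.63, adjusted p = 0.00159). The liver libraries were split. Those of fetuses 1, 2 and 3 held 1, 0 and 0 counts, and those of fetuses 4, 5, 8, 9 and 10 held 424, 615, 182, 203 and 116. The summed level of 6 cardiomyocyte markers in these livers was 10.3, 11.05 and 2059 CPM in fetuses 1 to 3 and 686, 388, 109, 52.7 and 7.25 in fetuses 4, 5, 8, 9 and 10. In the liver of fetus 3, the marker ACTC1 alone was at 1953 CPM, so the sum there rests mostly on 1 gene. Skeletal muscle markers summed to 68.7, 64.1 and 901 CPM in the livers of fetuses 1 to 3. In those of fetuses 4, 5, 8, 9 and 10 they summed to 733, 347, 141, 76.4 and 49.0 CPM. Of these markers, TNNC2 was at 728.8, 637.9 and 286.4 CPM in the livers of fetuses 3, 4 and 5. The source of the EEF1A2 counts in liver was not tested.

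EEF2, the translocase, measured 1619.7 to 1999.95 CPM in heart, above every gonad library (406.2 to 724.4) and every liver library (621.6 to 963.8). The log2 difference was 1.76 over gonad (SE 0.12, adjusted p = 3.16e-12) and 1.20 over liver (SE 0.12, adjusted p = 3.47e-09). Its level in gonad was also called below liver (-0.57, SE 0.12), a direction that turned to 0.47 with library totals. EEF2K, the inhibitory kinase of EEF2, was highest in liver, where EEF2 was below heart, with 157.3 to 217.1 CPM against 44.7 to 71.2 in heart and 37.2 to 49.6 in gonad. Liver exceeded heart by 1.76 on the log2 scale and gonad by 2.10, each with adjusted p under 0.05.

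Of the 4 EEF1B subunits and partners, EEF1G was highest in heart, EEF1D highest in liver and EEF1E1 lowest in liver. EEF1D and EEF1G were also lowest in gonad, a call that EEF1G lost without fetus 1, 5 or 10 (adjusted p from 0.0534 to 0.0771). With library totals EEF1G lost its calls in heart and gonad, and EEF1D its calls in liver and gonad. EEF1B2, the exchange subunit itself, was called in no organ, with 369 ± 250 CPM in heart, 326 ± 81.2 in gonad and 303 ± 103 in liver. Of the 5 modifiers, the EEF1A methyltransferase EEF1AKMT1 was called higher in heart, a direction over gonad that turned to -0.12 with library totals, and EEF1AKMT2 and EEF1AKMT3 higher in gonad.

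**Figure D3:**
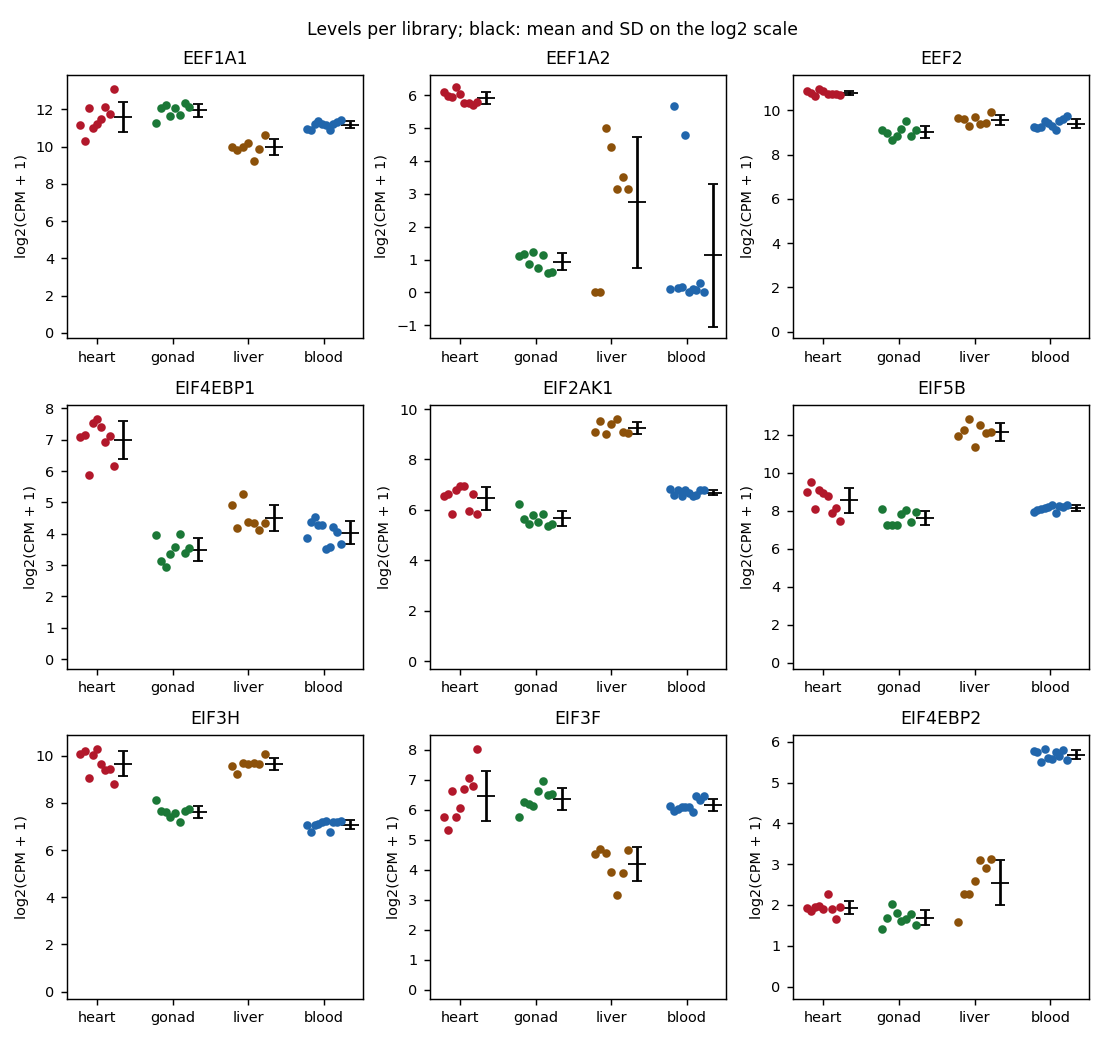
Levels of 9 factors in every library of each tissue as log2(CPM + 1), with the mean and SD on that scale in black. EEF1A2, EEF2 and EIF4EBP1 are highest in heart, EIF2AK1 and EIF5B in liver and EIF4EBP2 in maternal blood, EIF3H is low in gonad and blood, and EIF3F is low in liver.

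EIF5B, the GTPase of subunit joining, was far higher in liver than in the other organs. It measured 2590.5 CPM at the lowest, 4600.3 at the median and 7213.1 at the highest in liver, against 177.1 to 734.8 in heart and 150.1 to 269.8 in gonad. No heart or gonad library came near the lowest liver library. The log2 difference was -3.56 for heart over liver (SE 0.27, adjusted p = 1.35e-11) and -4.59 for gonad over liver (SE 0.30, adjusted p = 5.61e-13). No gene of the gene table overlaps EIF5B. The difference between heart and gonad, 1.03 (SE 0.25), turned to -0.14 with library totals.

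The 7 factors of the EIF2 complex and initiator tRNA delivery did not move as a group. EIF2S1, EIF5 and EIF5B were called higher in liver, EIF2A and EIF2S3 lower in liver, EIF2D lower in heart and EIF2A higher and EIF5B lower in gonad. EIF2A, an alternative tRNA carrier, is among the factors that broke the ratio of the gonad pair, and its gonad libraries ran from 20.9 to 171 CPM. Its call over heart was lost when fetus 2, 4, 5, 6, 8 or 9 was left out, with adjusted p from 0.0679 to 0.166, and with fetus as a replicate block, at adjusted p = 0.239 (edgeR). Its call in liver was lost without fetus 3, 4, 8 or 9 (adjusted p from 0.0777 to 0.162), and that of EIF2S1 without fetus 10 (0.127) and with the block. Of the 5 subunits of EIF2B, the factor that recharges EIF2 with GTP, EIF2B3 and EIF2B5 were higher in liver, EIF2B4 lower in heart and EIF2B3 lower in gonad, the last lost without fetus 3 or 9 (adjusted p from 0.0502 to 0.0603). With library totals EIF2S1, EIF5, EIF2B3 and EIF2B5 lost their calls as higher in liver. EIF2A lost its call as lower in liver under that scaling, and EIF2B3 and EIF5B theirs as lower in gonad.

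The 4 kinases of EIF2 alpha had 3 patterns among the organs. EIF2AK1, the kinase that responds to low heme and is known for its role in red cell precursors, measured 521.2 to 773.5 CPM in liver, 55.8 to 124.0 in heart and 40.6 to 74.6 in gonad. The groups of liver and the other organs did not overlap, and liver exceeded heart by 2.78 on the log2 scale (SE 0.18, adjusted p = 6.04e-13) and gonad by 3.65 (SE 0.19, adjusted p = 1.39e-14). Erythroid markers summed to 4034 to 6327 CPM in the liver libraries, 737 to 2811 in heart and 195 to 776 in gonad. In maternal blood they ran from 204 to 8673 CPM, and EIF2AK1 in blood over liver was -2.57 on the log2 scale (SE 0.14). Whether red cell content bears on the level of EIF2AK1 was not tested. AIMP2 and ANKRD61 overlap EIF2AK1 in the gene table.

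EIF2AK3, the kinase of endoplasmic reticulum stress, and EIF2AK4, the kinase of amino acid shortage, were highest in gonad. EIF2AK3 measured 21.2 ± 4.44 CPM in gonad, 11.5 ± 2.77 in heart and 5.64 ± 1.34 in liver, and exceeded liver by 1.88 on the log2 scale (SE 0.19, adjusted p = 3.04e-09) and heart by 0.86 (SE 0.17, adjusted p = 0.000113). EIF2AK4 measured 96.5 ± 13.8, 53.1 ± 10.3 and 46.2 ± 7.57 CPM in the same order. EIF2AK2, the kinase of double-stranded RNA, was at 18.3 ± 9.86 CPM in heart, 19.4 ± 3.08 in gonad and 18.8 ± 7.79 in liver, with no organ called.

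The EIF3 complex binds the small subunit and organises the other factors around it. Of its 13 subunits in the table, 7 were called lower in gonad (EIF3B, EIF3CL, EIF3D, EIF3H, EIF3I, EIF3J and EIF3K), 4 higher in liver, 3 lower in liver, 1 higher in heart and 1 lower in heart, and none higher in gonad. EIF3B, EIF3CL, EIF3D, EIF3I, EIF3J and EIF3K lost their calls as lower in gonad with library totals. Of these, EIF3CL, EIF3D, EIF3J and EIF3K came out above heart in gonad, and EIF3CL and EIF3J also above liver. EIF3H held its direction against both organs under that scaling, with 144.4 to 276.2 CPM in gonad against 441.1 to 1225.1 in heart and 589.9 to 1083.6 in liver. Gonad was lower by 2.12 on the log2 scale than heart (SE 0.19, adjusted p = 8.85e-10) and by 2.07 than liver (SE 0.20, adjusted p = 1.13e-09). With library totals EIF3CL and EIF3I also lost their calls as higher in liver, and EIF3E its call as higher in heart.

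The subunits called low in liver were EIF3E, EIF3F and EIF3M. EIF3F measured 7.99 to 25.0 CPM in liver, below every heart library (39.4 to 258.6) and every gonad library (53.3 to 122.5), and heart exceeded liver by 2.44 on the log2 scale (SE 0.33, adjusted p = 4.69e-07). EIF3D, the subunit that can bind the cap, was called highest in liver, with a liver median of 513.7 CPM and a single value of 1102.8 in fetus 3. Subunits of a single complex were thus not at the same relative level in the 3 organs.

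Among the cap-binding proteins and their partners, the paralogues differed in where they were highest. EIF4E, the main cap-binding protein, was called in no organ (40.9 ± 19.7 CPM in heart, 64.1 ± 34.6 in gonad, 44.6 ± 11.2 in liver). EIF4E2 was lowest in liver. EIF4E1B, known as an oocyte form, had at most 8 counts in any heart or gonad library and 0 to 60 counts in liver, with a mean of 1.08 CPM there. It passed the filter on low counts through liver alone, so its call as higher in liver carries no weight. EIF4E3 held 1 and 0 counts in the livers of fetuses 1 and 2 and 225 to 1080 in the 6 other livers, and was called in no organ.

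The EIF4E-binding inhibitors are the arm through which mTORC1 acts on the cap, and EIF4EBP1 stood out among them in heart. It measured 57.8 CPM at the lowest, 138.0 at the median and 200.8 at the highest in heart, against 6.59 to 14.9 in gonad and 16.3 to 37.3 in liver. Every heart library was above every library of the other organs. The log2 difference was 3.70 over gonad (SE 0.26, adjusted p = 5.29e-12) and 2.57 over liver (SE 0.26, adjusted p = 2.47e-09). The lowest heart values were those of fetuses 3 (57.8) and 10 (70.8), which also had the lowest mitochondrial shares among hearts, 23.5% and 17.1%. EIF4EBP2 and EIF4EBP3 were called higher in liver, at 5.20 ± 2.16 and 26.7 ± 5.76 CPM. Both calls were lost with library totals. EIF4EBP3 was below liver and heart in gonad, and both of these directions turned with library totals. Its call in liver was lost without fetus 6, 8, 9 or 10 (adjusted p from 0.0538 to 0.155), and that in gonad without fetus 5 (0.0645).

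The EIF4A helicases and EIF4G2 were low in liver. EIF4A1, EIF4A2 and EIF4A3 were called lower in liver, with the helicase paralogue EIF4A2 at 90.9 to 146.8 CPM in liver, 216.8 to 498.2 in heart and 332.2 to 595.7 in gonad. EIF4A2 was 1.97 higher in gonad than in liver on the log2 scale (SE 0.16, adjusted p = 3.05e-11). EIF4A3, which serves in the exon junction complex, EIF4A2 and EIF4H were also called higher in gonad. The call of EIF4H was lost without fetus 2, 4, 5, 6, 8 or 9 (adjusted p from 0.0516 to 0.0886), and that of EIF4A3 without fetus 1, 4, 5 or 9 (0.0527 to 0.0925) and with the replicate block, while EIF4A2 kept its call whichever fetus was left out. Of the EIF4G scaffolds, EIF4G2, which lacks the EIF4E site, was lower in liver (97.0 ± 38.2 CPM against 319 ± 144 in heart and 487 ± 118 in gonad) and higher in gonad, while EIF4G1 and EIF4G3 were called in no organ. EIF4G3 was split in gonad, with 19914, 14716 and 19904 counts in fetuses 5, 8 and 10 against 2933 to 6472 in the others. The call of EIF4G2 in gonad was lost without fetus 1, 2, 3, 4, 5, 6 or 9 (adjusted p from 0.055 to 0.126).

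Of the small start-codon factors, EIF1 was highest in heart (125.6 to 225.3 CPM), a direction over gonad that turned to -0.04 with library totals. Its paralogue EIF1B was lowest in liver (17.8 ± 6.19 CPM against 57.6 ± 23.8 in heart and 47.6 ± 18.3 in gonad). EIF1AX was called higher in liver (242 ± 97.9 CPM), with a spread of 20.5 to 270.1 CPM in gonad. It held 11642, 12588 and 15497 counts in the gonads of fetuses 5, 8 and 10 against 737 to 4038 in the other gonads. Its calls were lost without fetus 4, at adjusted p = 0.0586 against heart and 0.0602 against gonad, and that against gonad also with library totals, at adjusted p = 0.86 (edgeR). EIF5A, the factor that carries hypusine, was highest in heart (78.2 ± 14.7 CPM), with a direction over gonad that turned to -0.25 with library totals. EIF5A2 had at most 15 counts in heart and 4 in liver and passed the filter through its gonad counts of 15 to 39.

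In maternal blood 3 of 4 EIF2 alpha kinases, the 3 EIF4G scaffolds and EIF4EBP2 were high, and 5 of 13 EIF3 and 3 of 5 EIF2B subunits low. Blood was set against each organ in a fit over all 34 libraries, and kit, animal and tissue cannot be told apart in it. Of the 64 factors, 16 were called higher in blood than in all 3 organs (25.0%, against 24.4% of the 20632 genes tested) and 12 lower (18.8% against 28.1%). The share higher was near the background and the share lower below it. With size factors by relative log expression the split was 14 higher and 17 lower, and with library totals 10 higher and 7 lower.

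EIF4EBP2 had the largest margin among the factors called higher in blood. It measured 44.4 to 55.4 CPM in blood against at most 7.74 in any organ library, and blood exceeded liver, the nearest organ, by 3.30 on the log2 scale (SE 0.19, adjusted p = 4.1e-17). EIF4EBP1 and EIF4EBP3 were not called higher in blood, at 15.9 ± 4.04 and 13.2 ± 1.43 CPM there. Both were below heart (-2.98 and -0.53 on the log2 scale) and liver (-0.49 and -0.99). The liver difference of EIF4EBP1 changed direction with library totals. Against gonad, EIF4EBP1 was higher in blood by 0.65 (SE 0.21), and EIF4EBP3 did not pass (-0.14, SE 0.14). EIF4H, the partner of the helicase EIF4A, measured 198.8 to 240.3 CPM in blood against at most 50.1 elsewhere, with a smallest log2 difference of 2.82 over gonad (SE 0.29, adjusted p = 7.0e-11).

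Of the EIF2 alpha kinases, 3 of 4 were higher in blood. EIF2AK3 measured 85.4 to 105.7 CPM against at most 26.4 in the organs. EIF2AK2, which interferon induces, ran from 84.1 through a median of 117 to 307.1 CPM, against at most 41.7 in the organs, and the highest value was that of the dam of fetus 10. The smallest log2 difference was 2.25 for EIF2AK3 (SE 0.15) and 2.93 for EIF2AK2 (SE 0.29), both over gonad. EIF2AK4 was higher over gonad by 0.33 (SE 0.11), a direction that turned to -0.23 with library totals.

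All 3 EIF4G scaffolds were called higher in blood, but none kept that call with library totals. The difference of EIF4G3 over gonad, 0.53 (SE 0.21), turned to -0.02 under that scaling. EIF4G1 measured 275.8 to 369.8 CPM in blood against at most 227.6 in the organs. EIF4A3, EIF4B, EIF4E2, EIF1B, EIF2S2, EIF3A, EIF3G and EIF5A2 completed the list of 16. Calls were lost when 1 fetus was left out for EIF2S2 (3, 4, 6, 8 or 9), EIF4G3 (1, 3, 4, 6 or 9), EIF4B (3, 5, 8 or 9), EIF4A3 (10) and EIF4E2 (10), with adjusted p from 0.0564 to 0.139. With library totals EIF2S2, EIF4A3 and EIF4E2 also lost their calls. EIF3A, the large scaffold of EIF3, measured 532.9 to 739.1 CPM in blood against at most 251.4 in the organs.

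Among the 12 factors lower in blood, 5 were EIF3 subunits (EIF3E, EIF3H, EIF3I, EIF3K and EIF3M) and 3 were EIF2B subunits (EIF2B1, EIF2B2 and EIF2B3). EIF2B1 was lower by at least 1.21 on the log2 scale (blood over heart -1.21, SE 0.15) and EIF3I by at least 1.16 (blood over gonad -1.16, SE 0.10). EEF1B2, EEF1D, EIF2S1 and EIF4ENIF1 made up the rest, and EIF4ENIF1 lost its call without fetus 1 (adjusted p = 0.0756). With library totals the calls of EEF1B2, EIF2B2, EIF2S1, EIF3E and EIF3M were lost. With scaling by trimmed means, EIF3A and EIF3G thus lay above the organs in blood while 5 other subunits lay below them.

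EEF1A2 in blood followed the libraries rich in muscle transcripts. The dams of fetuses 2 and 5 held 2314 and 800 counts, and the 8 other dams 0 to 10. Blood over gonad came out at 3.11 on the log2 scale (SE 1.15, adjusted p = 0.015, edgeR) with all libraries and at -3.44 (adjusted p = 0.0002) without those dams, so the sign depended on them. With fetus as a replicate block the difference was -1.14 (adjusted p = 0.419). EEF1A2 and EIF4E1B did not pass the filter on low counts within blood.

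Along fetal weight, 9 factors rose and 1 fell in heart, and none passed the test in gonad, liver or blood. The slope is given as the log2 change per 0.1 g of fetal weight. In heart the rising factors were 9 of the 62 that passed the filter there (14.5%, against 5.22% of the 16250 genes tested), and the falling one was 1 of 62 (1.61% against 1.54%). The median slope of the factors was 0.053 against -0.014 for all genes, and 41 of 62 slopes were above 0. At an unadjusted p under 0.05 there were 25 slopes above 0 (40.3% against 16.4%) and 9 below it (14.5% against 12.7%).

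EEF1B2, the exchange subunit for EEF1A, had the steepest rise. It measured 168.4, 129.3, 297.8, 179.9 and 214.7 CPM in the hearts of fetuses 1 to 5 and 392.3, 571.3, 463.1 and 904.5 in those of fetuses 6, 8, 9 and 10. Every ET_D9 heart was above every ET_D7 heart. Its slope was 0.52 (SE 0.08, adjusted p = 0.0395). EIF3F (0.45, SE 0.08), EIF1AX (0.37, SE 0.06), EIF1B (0.32, SE 0.06), EIF3J (0.21, SE 0.04) and EIF3K (0.19, SE 0.04) passed at the same adjusted p.

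EIF2S3, the gamma subunit of EIF2, at 0.40 (SE 0.11, adjusted p = 0.0496), EEF1A1 at 0.39 (SE 0.10, adjusted p = 0.0481) and EIF6, the factor that keeps the subunits apart, at 0.38 (SE 0.10, adjusted p = 0.0497) passed narrowly. EIF5B fell, with a slope of -0.35 (SE 0.08, adjusted p = 0.0419), from 514.2 and 734.8 CPM in the hearts of fetuses 1 and 2 to 288.0 and 177.1 in those of fetuses 9 and 10. The rising factors came from 6 roles: 3 were EIF3 subunits, 2 were start-codon factors and the others belonged to EIF2, EEF1A, EEF1B and EIF6.

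The share of mitochondrial counts in heart moved along the same axis. It was 45.1%, 57.3%, 23.5%, 41.5% and 40.8% in the hearts of fetuses 1 to 5 and 39.0%, 25.5%, 28.5% and 17.1% in those of fetuses 6, 8, 9 and 10. The heart of fetus 3 stood apart from its neighbours in weight, with a low mitochondrial share, the highest EEF1B2 of the ET_D7 hearts and the lowest EIF5B (277.0 CPM) of them. With the mitochondrial share as a covariate, the slope of EEF1B2 was 0.32 (adjusted p = 0.549) and no factor passed the test. With mitochondrial genes merely left out of the counts, 7 factors rose and 1 fell.

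The heart calls were not stable. With transfer group as a covariate the slope of EEF1B2 was 0.33 (adjusted p = 0.699) and no factor passed. None passed either with library totals, without fetuses 9 and 10, or when fetus 1, 2, 4, 5, 8 or 10 was left out, while 23 rose and 6 fell without fetus 3, 16 rose and 1 fell without fetus 9, and 6 rose and 0 fell without fetus 6. By DESeq2, 23 rose and 3 fell.

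**Figure D4:**
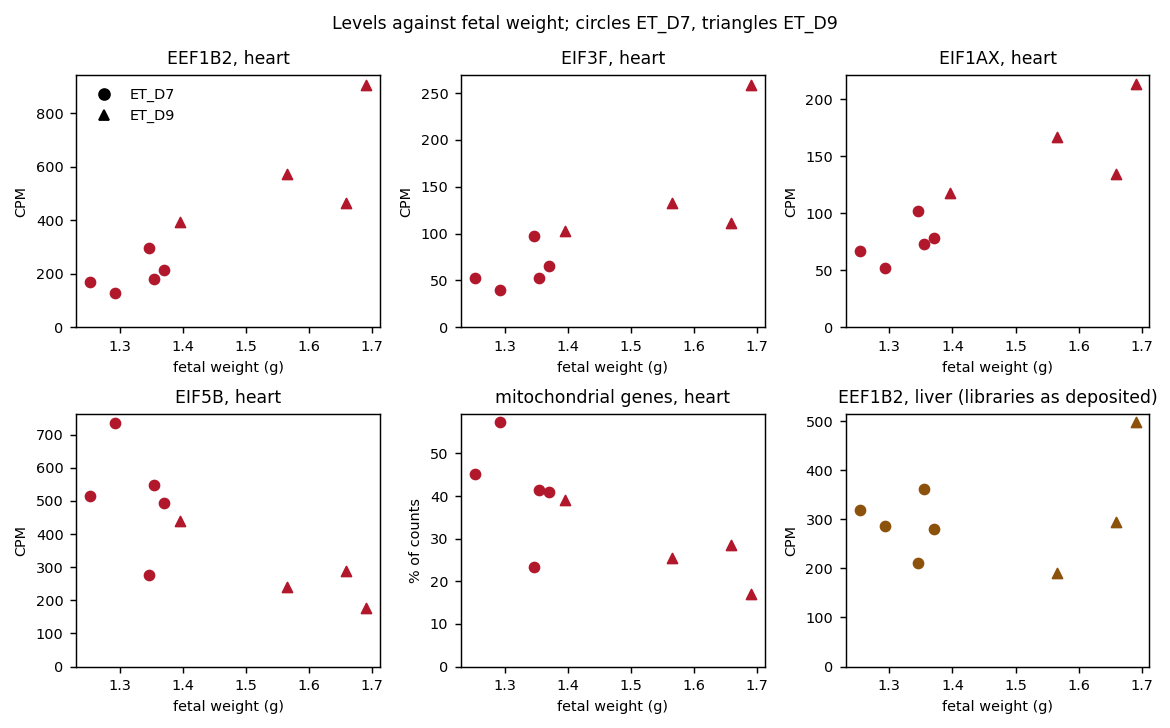
CPM of EEF1B2, EIF3F, EIF1AX and EIF5B in heart, the mitochondrial share of heart counts, and CPM of EEF1B2 in liver, each against fetal weight in g, with circles for ET_D7 and triangles for ET_D9. In heart EEF1B2, EIF3F and EIF1AX are highest in fetus 10 while EIF5B and the mitochondrial share are lowest there; fetus 3, at 1.346 g, departs from its neighbours in all of these.

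In the other tissues the slopes were smaller or less certain. In gonad, 0 of 63 factors passed the slope test (0% of the 17670 genes did), 3 slopes above 0 and 1 below it had an unadjusted p under 0.05 (3.45% and 2.41% of all genes, edgeR), and DESeq2 also called 0. EEF1B2 again had the smallest p, with a slope of 0.22 (SE 0.06, adjusted p = 0.746). In liver, 0 of 63 passed (0.136% of 16211 genes rose and 1.41% fell), 5 slopes above 0 and 1 below it had an unadjusted p under 0.05 (4.11% and 8.62% of all genes), and DESeq2 called 1 each way, EEF2KMT at 0.42 and EIF4G3 at -0.19. EEF2KMT, the methyltransferase of EEF2, measured 2.15 to 3.41 CPM in the lighter livers, from the averaged pair to fetus 5, and 6.75 to 8.25 in those of fetuses 8, 9 and 10.

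In maternal blood, 0 of 62 passed in either direction (0% of 16284 genes did), 9 slopes above 0 and 0 below it had an unadjusted p under 0.05 (4.53% and 5.16% of all genes, edgeR), and DESeq2 called 0. The slopes of 51 of 62 factors were above 0, with a median of 0.044 against 0.0018 for all genes, and all 13 EIF3 subunits were among them. EIF2AK2 had the largest of these slopes, 0.25 (SE 0.08, adjusted p = 0.404), which came to 0.12 without the dam of fetus 10, followed in order of p by EIF3CL (0.08, SE 0.02) and EIF3L (0.08, SE 0.03). The factors share their libraries, so these signs are not independent of each other.

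**Figure D5:**
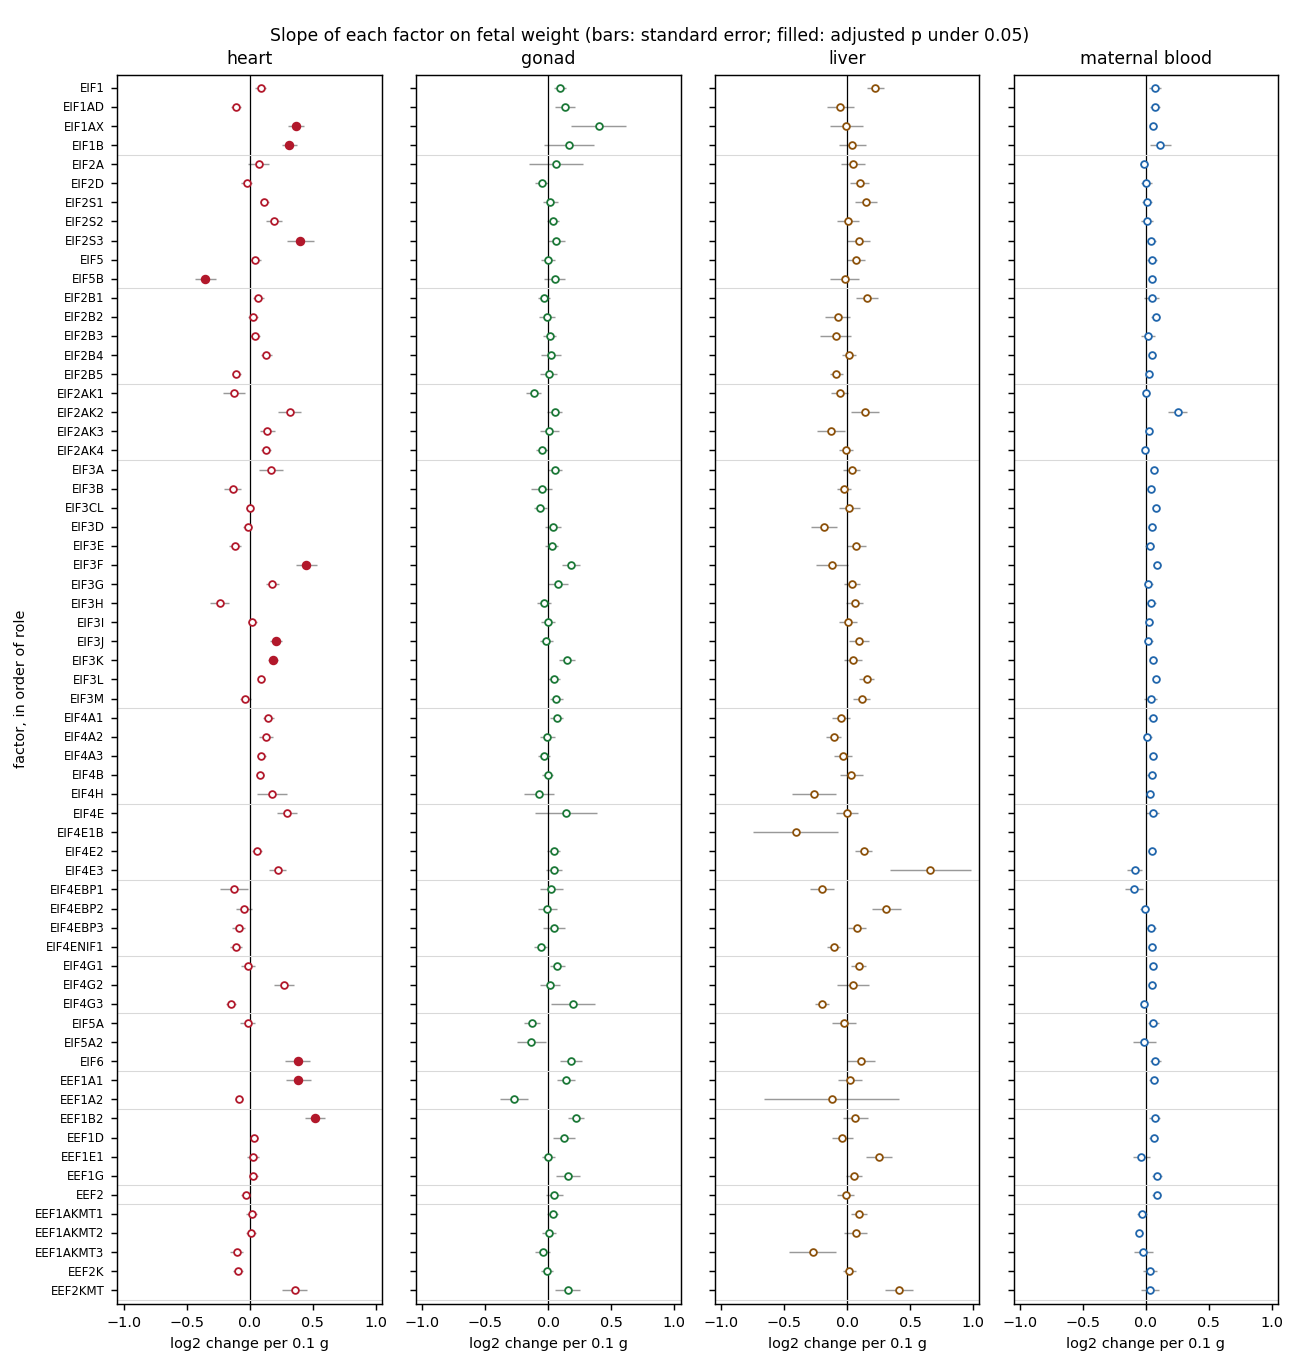
Slope of each factor on fetal weight in the 4 tissues, as log2 change per 0.1 g, with standard errors as bars and filled points for an adjusted p under 0.05. Only heart has filled points, 9 to the right of 0 and EIF5B to the left, and the blood slopes lie close to 0 with most on its right.

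A curve in place of a line, a natural spline with 3 degrees of freedom, was also tested. In gonad, 5 factors passed (EIF1B, EIF4E, EEF1B2, EIF3F and EEF1G, 7.94% against 5.28% of all genes, and 20 against 22.3% of all genes at an unadjusted p under 0.05), and none did with the gonads of fetuses 6 and 8 kept as separate libraries. The gonad of fetus 1 held the lowest EIF1B (6.81 CPM against 46.5 to 71.4 in the others) and the lowest EIF4E (7.20 against 33.2 to 125.7), and 1 factor passed without it, against 3, 2, 0, 3 and 2 without fetus 3, 4, 6, 9 or 10 and 8 without fetus 8. In liver EIF4E3 passed (1.59% against 1.71% of all genes, and 13 factors against 10.7% of all genes at an unadjusted p under 0.05), whose livers of fetuses 1 and 2 held almost no counts, and no factor passed without fetus 3, 4 or 5, against 2 without fetus 8, 9 or 10. In heart and in blood 0 factors passed by edgeR, against 0% and 0.129% of all genes, with 9 and 3 at an unadjusted p under 0.05 (7.99% and 9.77% of all genes).

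The slopes of EIF3F and EEF1B2 differed between heart and liver. A fit with a slope for each organ gave a difference of heart over liver of 0.55 for EIF3F (SE 0.14, adjusted p = 0.0168) and 0.43 for EEF1B2 (SE 0.12, adjusted p = 0.0376), which are 2 of 64 factors (3.12%, against 7.17% of 19489 genes, and 14 against 21.0% at an unadjusted p under 0.05). EIF3F passed whichever fetus was left out, and EEF1B2 did not pass without fetus 1, 2, 4, 5, 8, 9 or 10 (adjusted p from 0.0605 to 0.0997). No factor differed between heart and gonad (0.0257% of genes did) or between gonad and liver (4.90%), with 6 and 8 at an unadjusted p under 0.05 (6.49% and 15.6% of genes, edgeR).

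Other genes of the pathway were followed in 6 lists, with the same tests and the same shares over all genes. These shares were 13.6% higher and 10.6% lower in heart, 18.2% and 16.9% in gonad, 26.1% and 23.5% in liver, 24.4% and 28.1% in blood, and 5.22% rising with weight in heart. Of 12 poly(A)-binding proteins and EIF4 regulators, 0 were higher and 2 lower in heart, 3 and 4 in gonad, 2 and 4 in liver, and 6 and 2 in blood, and 3 rose with weight in heart. PABPC4, a poly(A)-binding protein, had a mean of 1378.9 CPM in liver against 249 in heart and 143 in gonad, and exceeded heart by 2.49 and gonad by 3.30 on the log2 scale. Of 9 genes of the mTORC1 arm, which acts on the EIF4E-binding proteins, 2 were higher and 1 lower in heart, 1 and 2 in gonad, 1 and 2 in liver, and 4 and 3 in blood, and 0 rose in heart. The 2 higher in heart were RHEB, the GTPase that activates mTORC1, and TSC2, which switches RHEB off.

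Of 11 genes of the integrated stress response, the programme downstream of EIF2 alpha phosphorylation, 2 were higher and 1 lower in heart, 2 and 5 in gonad, 6 and 1 in liver, and 2 and 2 in blood, and 1 rose in heart. ATF4, its central transcription factor, had a mean of 2037 CPM in liver, 979 in heart and 246 in gonad, and DDIT3 178, 92.4 and 34.2. Of 8 enzymes that modify EIF5A or EEF2, 1 was higher and 0 lower in heart, 1 and 3 in gonad, 1 and 1 in liver, and 1 and 3 in blood, and 1 rose in heart. The enzyme higher in heart was DHPS, which starts the hypusine of EIF5A.

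Of 9 mitochondrial translation factors, 2 were higher (TUFM and MRRF) and 1 lower in heart, 2 and 3 in gonad, 1 and 2 in liver, and 0 and 4 in blood, and 4 rose in heart. Of 8 termination and recycling factors, 6 were tested, since GSPT1 and PELO are listed at 0 in every library. Of these, 0 were higher and 0 lower in heart, 1 and 0 in gonad, 2 (ETF1 and HBS1L) and 0 in liver, and 1 and 1 in blood, and 3 rose in heart. The heart rises in these lists come from the same fit as those of the factors and carry the same limits.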

How the data were processed

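RNA-seq libraries from fetal heart, gonad and liver and from maternal blood (36 in all) were used. The authors deposited raw read counts per gene for all libraries in a single table. Per the labels and the study's methods, reads were checked with FastQC 0.11.9, trimmed with Trimmomatic, aligned to ARS-UCD1.3 with STAR 2.7.0b and counted with featureCounts (Subread 2.0.3). Whether counting used strand or shared reads is not given in the sources used here, so genes with near-identical copies or overlapping neighbours are uncertain. Libraries with low RNA integrity had been discarded by the authors. Of the gene IDs, 31630 matched the RefSeq gene table, which is of another build (ARS-UCD2.0) and was used for symbols and overlaps only.

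Counts were tested with the quasi-likelihood F test of edgeR 4.0.16 in R 4.3.3, with TMM scaling, genes kept at 10 or more counts in 4 or more libraries, and Benjamini-Hochberg adjustment over all genes at 0.05. The standard error of a log2 change is its size over the root of F. CPM values, which scale each count to a common library size, use TMM over all 34 libraries. The planned fits counted 36 libraries. The 2 pairs whose typical gene differed by less than sampling noise were averaged instead, a choice made after seeing the data. An averaged library took the mean weight of its fetuses, 1.4805 g for gonad 6+8 and 1.273 g for liver 1+2. In the replicate block it was counted under fetus 6 in gonad and fetus 1 in liver, although it mixes 2 fetuses. Organ and blood fits hold tissue as the term. Weight was tested within each tissue, as a line and as a spline with 3 degrees of freedom, and slopes were compared between organs by an interaction. DESeq2 1.42.0, other scalings and filters, a replicate block and left-out fetuses were alternatives. The mitochondrial-share covariate, the left-out muscle-rich blood libraries and gonad library and the skeletal muscle list were added after seeing the data. The scripts were tested on simulated data.

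The members and lists were chosen with earlier results of these data known. Genes were named by rule: paralogue sets, up to 6 higher and 4 lower per organ, the 6 smallest slope p-values per tissue, members failing the filter or jumping between almost 0 and many counts, and called slope differences. A ranking of levels per length was not made. Other members are named to complete counts. Libraries of 1 pregnancy share a fetus number. The correlation of their deviations from the tissue means ran from -0.25 to 0.32. Since the tissues come from the same pregnancy, the block is reported where it loses a call. Calls that it added are given as counts only. p-values measure the spread between fetuses or dams. The number of sample columns left unused was 0.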

Additional observations from a re-analysis of the deposited data

Results flagged for a closer look

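A library was picked out when its gap to the nearest other library of its tissue was large against the whole range of that tissue (Dixon's criterion). Among 45 named factors this held in 27 of 180 tissue groups. The criterion's chance rate of about 1 in 20 assumes normally distributed values. It was applied to CPM without a log scale, and their distribution was not tested. The number of groups is therefore not compared with that rate. The groups share libraries and are not independent.

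The heart of fetus 10, the heaviest fetus, had 6 such values, each the highest of 9. They were EEF1A1 at 8709.6 CPM, EIF4G2 at 644.54, EIF3F at 258.6, EIF4E at 85.246, EIF6 at 44.549 and EIF2AK2 at 41.652. This heart also had the lowest mitochondrial share among hearts, 17.1%. In the other hearts, EIF3CL was lowest in fetus 2 (148.08 CPM) and EIF4EBP2 highest in fetus 6 (3.8478 CPM).

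In gonad, fetus 1 had the lowest EIF1B (6.8129 CPM) and the highest EIF2AK1 (74.553 CPM), and fetus 10 the highest EIF4E1B (0.13945 CPM, from 8 counts). In liver, EIF3D was highest in fetus 3 (1102.8 CPM), EEF1AKMT3 in fetus 4 (9.8037 CPM), and EIF3A (251.36 CPM) and EIF3J (137.42 CPM) in fetus 10.

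In maternal blood, the dam of fetus 10 had the highest EIF2AK2 (307.12 CPM), EIF3D (291.86 CPM), EIF3L (104.71 CPM) and EIF4E2 (46.472 CPM). The dam of fetus 2 had the highest EEF1A2 (50.302 CPM) and the lowest EIF4A2 (326.14 CPM), in a library with 6998 CPM of skeletal muscle markers. The dam of fetus 7 had the highest EEF2K (143.34 CPM) and the lowest EEF1E1 (4.1671 CPM), that of fetus 6 the highest EIF4G3 (292.41 CPM) and EIF4E1B (0.28282 CPM, from 12 counts), that of fetus 8 the highest EIF1B (213.68 CPM) and that of fetus 5 the highest EIF3J (79.753 CPM).

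The slope on fetal weight differed between heart and liver for EIF3F, by 0.545 on the log2 scale per 0.1 g, and for EEF1B2, by 0.426, both by the interaction test of edgeR.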

How the results depend on the processing

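With library totals in place of TMM, the calls were 3 higher and 16 lower in heart, 31 and 2 in gonad, 6 and 21 in liver, and 10 and 7 in blood. No other alternative turned as many directions. Under it heart over gonad came to -0.63 for EIF4EBP3, -0.26 for EIF2AK1, -0.041 for EIF1, -0.25 for EIF5A, -0.12 for EEF1AKMT1, -0.14 for EIF5B, -0.72 for EEF2K, -0.47 for EIF3D, -0.43 for EIF3J, -0.19 for EIF3K and -0.69 for EIF3CL on the log2 scale. Gonad over liver came to 0.20 for EIF4EBP3, 0.47 for EEF2, 0.43 for EIF3J and 0.17 for EIF3CL. Blood over heart came to 0.096 for EIF5A, 0.12 for EIF5B and 0.041 for EIF3J. Blood over gonad came to -0.13 for EIF4E2, -0.23 for EIF2AK4, -0.16 for EIF5A, -0.023 for EIF4G3, -0.12 for EEF2, -0.020 for EIF5B and -0.22 for EIF3D. Blood over liver came to 0.036 for EIF4EBP1, 0.046 for EIF3J and 0.18 for EIF3L. The median of all genes moved to -0.72 for blood over gonad and 0.28 for blood over heart, and the median heart slope to 0.12. With an absolute log2 change above 1 also required, the calls were 3 and 0 in heart, 0 and 4 in gonad, 7 and 9 in liver, and 7 and 2 in blood, by construction fewer. In heart, the factors rising with weight numbered 18 with relative log expression factors, 23 with DESeq2 and 0 with library totals, with transfer group as a covariate or in place of weight, without fetuses 9 and 10, or with the mitochondrial share as a covariate, and those falling 2 at 50 or more counts, 3 with DESeq2 and 0 under the 5 settings that gave 0 rising. The cause was not tested. In liver DESeq2 called 1 rising and 1 falling. The gonad curve called 8 at 50 or more counts and 0 with the alike pairs kept separate, the liver curve 2 with library totals, and the slope difference of heart over liver 4 with the pairs separate. With transfer group as a covariate the gonad slope was -0.027 for EIF3F, -0.016 for EIF3K, -0.027 for EIF6 and 0.073 for EIF5A. Leaving out each fetus in turn gave 8 to 8 higher and 3 to 4 lower in heart, 5 to 11 and 17 to 19 in gonad (5 without fetus 4, 5 or 9), 16 to 19 and 16 to 19 in liver, 13 to 16 and 11 to 14 in blood, 0 to 23 rising and 0 to 6 falling in heart, 0 to 8 in the gonad curve, 0 to 2 in the liver curve and 1 to 3 in the heart and liver slope difference. With fetus as a replicate block the calls were 8 and 4 in heart, 7 and 21 in gonad, 18 and 19 in liver, and 17 and 12 in blood, and EEF1A2 in blood over gonad came to -1.14. In edgeR the block also lost EIF2A in heart over gonad (adjusted p = 0.239) and EIF4E3 in heart over liver (0.0885). It lost EEF1A1 (0.151) and EIF5B (0.104) in blood over heart, and EIF4EBP1 (0.0581) and EEF1AKMT3 (0.0993) in blood over liver. The calls of EIF4A3 as higher in gonad and EIF2S1 as higher in liver were lost too, and no other call of a factor against all other organs was lost. The block also added calls, such as 4 against 3 lower in heart and 19 against 17 lower in liver. The added calls are not named here. Without the muscle-rich blood libraries EEF1A2 in blood over gonad came to -3.44. Depth limits EIF4E1B and EIF5A2, which held few counts in most libraries.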
